A study of Saccharomyces cerevisiae with 15 samples.

Results

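Transcript levels of 10 budding yeast genes that supply ubiquitin, attach it to misfolded proteins or extract the tagged proteins were followed in the 15 libraries of the series. They were taken by systematic name from a table of 7126 genes: UBI4 (YLL039C), UBC4 (YBR082C), UBC5 (YDR059C), RSP5 (YER125W), SAN1 (YDR143C), UBR1 (YGR184C), HUL5 (YGL141W), CDC48 (YDL126C), UFD1 (YGR048W) and NPL4 (YBR170C). The names were chosen for what the genes are known to do, with earlier results of these data known. All 10 were among the 6399 genes that entered the tests.

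The series asks what the binding of the chaperone Hsp70 to Hsf1, the heat shock transcription factor, does to the genes that Hsf1 drives. Saccharomyces cerevisiae was grown in rich YPD medium to mid-log phase, with 3 biological replicates in each of 5 groups. At 30 °C the cells carried the wild type HSF1 allele, hsf1-mN (the Hsp70 site at the amino terminus mutated), hsf1-mC (the site at the carboxyl terminus mutated) or hsf1-mNmC (both mutated), and the fifth group was the wild type HSF1 strain moved to 37 °C for 15 min before harvest. Neither the strain background nor the location of the alleles, on a plasmid or in the genome, is given in the labels. The groups are called wild type, mN, mC, mNmC and wild type at 37 °C below, and single values are in replicate order.

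Ubiquitin is a small protein that cells join to other proteins as a tag. An E1 enzyme activates it, an E2 enzyme carries it and an E3 ligase picks the protein to be tagged, and chains of ubiquitin send that protein to the proteasome. In yeast this system removes proteins that misfold in the cytosol and nucleus, and cells that lack parts of it survive heat poorly. The polyubiquitin gene UBI4 has long been known as a stress gene.

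Libraries held 15462618 to 25409519 reads on genes (median 20675392), as recovered from the deposited FPKM values (reads or fragments per kilobase of gene, scaled by all those counted in the library). A member had between 856 reads (the lowest HUL5 value) and 28517 reads (the highest UBI4 value) in a library. Fold changes below are log2 of FPKM with 1 added, ± SE from limma, and a gene was called where its p, adjusted by Benjamini-Hochberg over all 6399 genes, was under 0.05. Across genes, Spearman's rho of the library labelled mNmC replicate 3 averaged 0.921 against the other two of its group and was 0.997 against replicate 1 at 37 °C. The library labelled 37 °C replicate 3 had 0.918 with its own group and 0.996 with mNmC replicate 1. HSF1 itself read 52.1, 59.4 and 149.9 FPKM in mNmC (replicate 3 last), against 159, 148 and 67.6 FPKM in wild type at 37 °C. These 2 libraries look exchanged, so calls of the members are given for all 15 libraries as labelled and for the 13 libraries without them. The library mN replicate 1 also stood apart, with 0.980 against its group where the other two had 0.988 and 0.989.

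The stretch upstream of UBI4 is shown because it was the single one among 5986 yeast promoters (500 bases before the start codon) to hold both a triple heat shock element and a proteasome-associated control element. The sequences are from RefSeq's R64 reference. The build behind the deposited values is not stated in the labels, although R64 coding lengths turned the FPKM of all 10 genes into whole reads. Capitals mark matches, on either strand, to a heat shock element pair (GAANNTTC or TTCNNGAA, the letters Hsf1 is known to bind), to the stress response element (AGGGG or CCCCT, bound by Msn2 and Msn4) and to the proteasome-associated control element (GGTGGCAAA or TTTGCCACC, bound by Rpn4). The UBI4 stretch lies at chrXII:65334-65616 on the minus strand, the UBC4 stretch at chrII:407448-407505 on the minus strand and the CDC48 stretch at chrIV:238772-238848 on the minus strand, each given 5′ to 3′.
UBI4: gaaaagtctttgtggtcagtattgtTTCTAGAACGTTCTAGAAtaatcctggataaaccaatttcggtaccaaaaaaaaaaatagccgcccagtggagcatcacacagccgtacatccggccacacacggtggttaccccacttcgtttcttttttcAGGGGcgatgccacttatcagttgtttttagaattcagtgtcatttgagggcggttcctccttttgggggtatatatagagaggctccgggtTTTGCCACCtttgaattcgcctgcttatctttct
UBC4: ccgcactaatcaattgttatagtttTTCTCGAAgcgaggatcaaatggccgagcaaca
CDC48: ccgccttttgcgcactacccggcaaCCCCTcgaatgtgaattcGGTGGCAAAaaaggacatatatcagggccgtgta

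In UBI4 the first run of capitals, which starts 384 bases before the start codon, holds 3 overlapping heat shock element pairs, or 4 alternating GAA and TTC units, a run found in 16 of 5986 promoters. A triple element (such a pair with another GAA or TTC unit at the same spacing) occurred in 1.5% of promoters and, among the members, in UBI4 alone. A single pair is common: 35.2% of promoters had at least 1, as did 5 of the 10 members (UBI4, UBC4, RSP5, UBR1 and HUL5). The UBR1 pair starts only 12 bases before the start codon. The HUL5 pair, 338 bases upstream, lies beyond the 233 bases that separate HUL5 from its annotated neighbour GPI10. The stress response element occurred in 34.1% of promoters and in 5 members (UBI4, RSP5, SAN1, UBR1 and CDC48). The control element bound by Rpn4 occurred in 1.6% of promoters and in UBI4 and CDC48. UBC5, UFD1 and NPL4 had none of these letters in the window. A match is a description of letters, not a measured site.

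**Figure D1:**
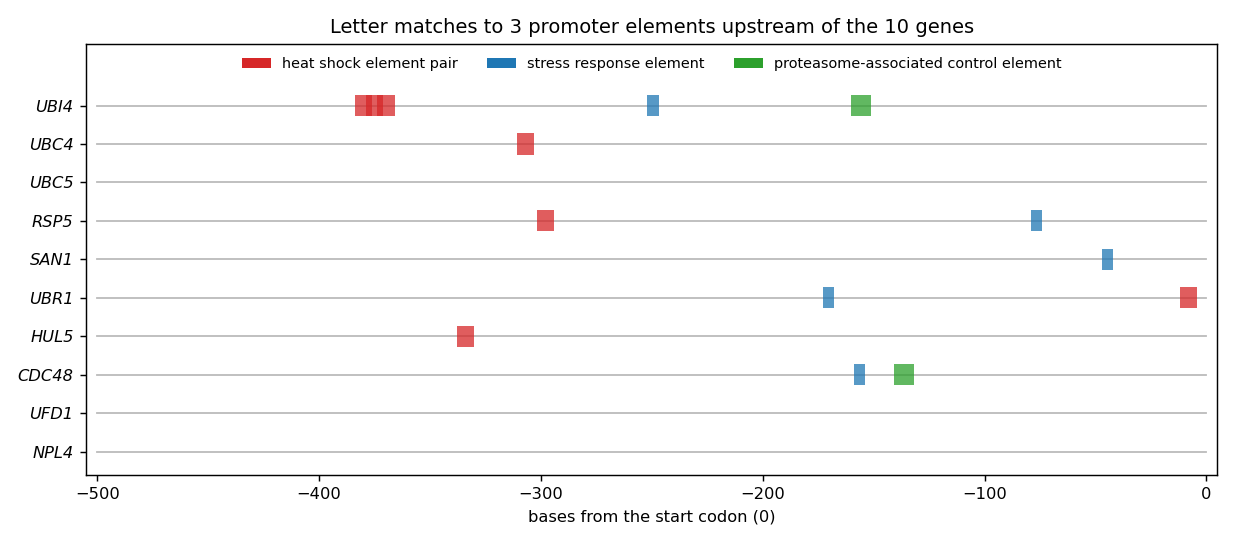
Positions of letter matches to 3 promoter elements in the 500 bases before the start codon of the 10 genes; the horizontal axis is distance from the start codon in bases, and each coloured block is 1 match on either strand. UBI4 has 3 overlapping heat shock element pairs starting 384 bases upstream, a stress response element at 252 and a control element at 160, while UBC5, UFD1 and NPL4 have no block.

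UBI4 encodes 5 ubiquitin units joined head to tail, which proteases cut into free ubiquitin. Its coding sequence (chromosome XII, bases 64062 to 65207 in R64, minus strand, 1 exon) has 1146 bases, of which 5 units of 228 bases are 80.3 to 90.4% identical to each other. UBI4 stood at 286, 279 and 281 FPKM in wild type at 30 °C. It read 361, 420 and 440 FPKM in mN and 359, 416 and 414 FPKM in mC. Every library of either single mutant was above every wild type library, and the single mutants overlapped each other. In mNmC it read 703 and 708 FPKM, and 1166 FPKM in replicate 3 as labelled. At 37 °C it read 1126 and 1161 FPKM, and 712 FPKM in replicate 3 as labelled. The 2 libraries that stand apart thus each had the UBI4 level of the other group, and without them the order was wild type (282 ± 4.0 FPKM, SD, n = 3), the single mutants, mNmC (706 ± 3.57, n = 2) and wild type at 37 °C (1143.5 ± 24.5, n = 2).

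At 37 °C UBI4 rose by 1.79 ± 0.22 as labelled (adjusted p = 1.42e-04) and by 2.02 ± 0.09 with 13 libraries (adjusted p = 8.17e-09). It also rose in mNmC without heat, by 1.56 ± 0.22 as labelled (adjusted p = 3.62e-04) and by 1.32 ± 0.09 with 13 libraries (adjusted p = 1.58e-06). The median gene was 0.26 to 0.29 higher at 37 °C and 0.25 to 0.27 higher in mNmC in these fits, and after scaling to the 75th percentile (upper quartile) the medians were 0.03 to 0.05. UBI4 rose by 1.73 more than the median gene at 37 °C and by 1.07 more in mNmC (13 libraries). In the single mutants UBI4 differed by 0.52 ± 0.22 (mN, adjusted p = 0.364) and 0.49 ± 0.22 (mC, adjusted p = 0.444) as labelled. Both differences passed with 13 libraries, with SE 0.08 and adjusted p of 0.00224 and 0.00450. The differences themselves were the same in both fits, since the 2 libraries left out belong to other groups. What changed was the spread, which limma estimates over all groups. In limma fits of the groups of each comparison alone both passed as well (adjusted p = 0.0327 in mN and 0.0035 in mC).

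**Figure D2:**
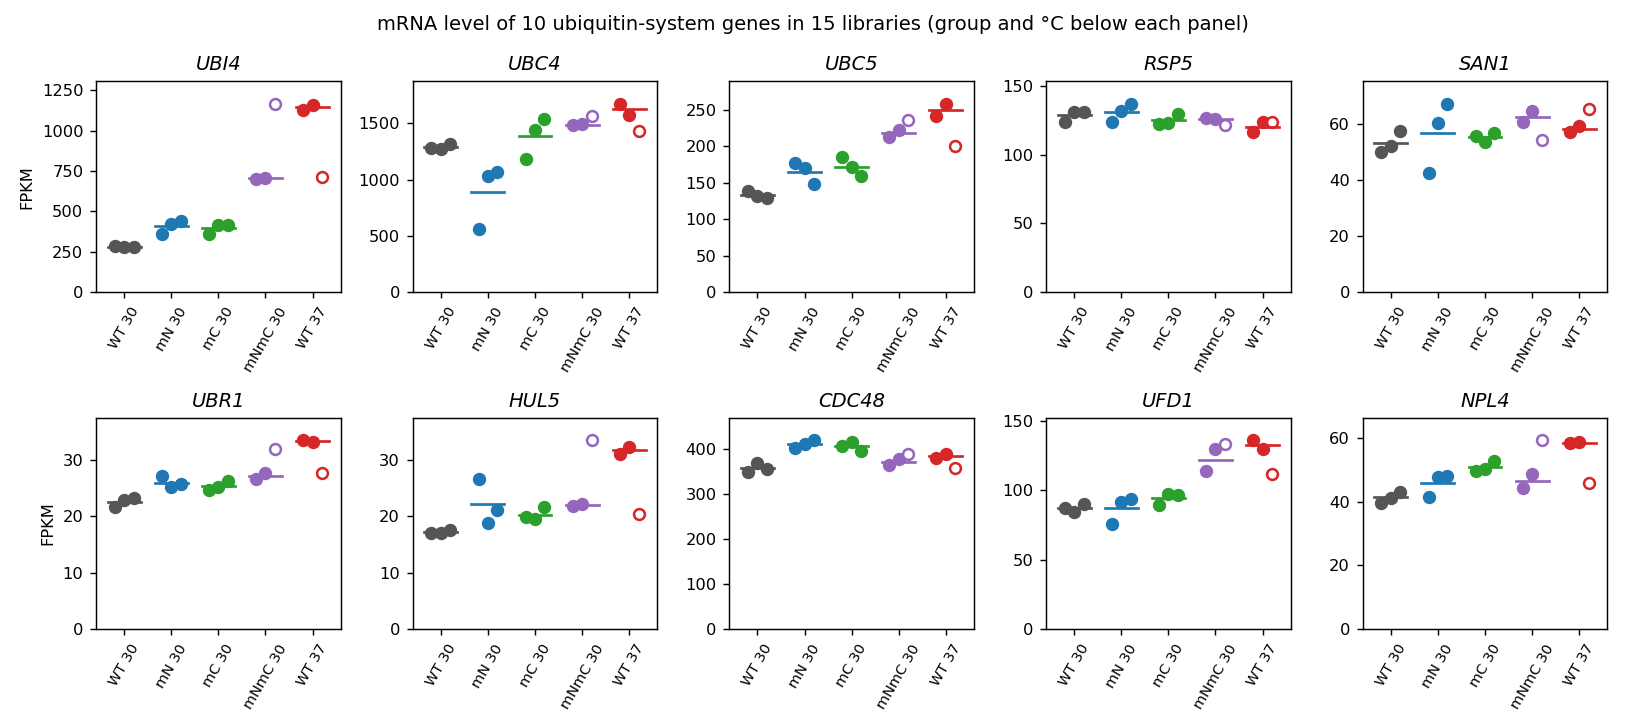
FPKM of each of the 10 genes in the 15 libraries by group; filled points are 13 libraries, open points are the libraries labelled mNmC replicate 3 and 37 °C replicate 3, and bars are group means of the filled points. For UBI4 the open mNmC point (1166 FPKM) lies with the 37 °C points and the open 37 °C point (712 FPKM) lies with the mNmC points, whereas RSP5 is level across groups.

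The other ubiquitin source of yeast is a set of 3 genes, RPL40A (YIL148W), RPL40B (YKR094C) and RPS31 (YLR167W), each coding for 1 ubiquitin unit fused to a ribosomal protein. RPS31 read 6471, 6062 and 6705 FPKM in wild type and 1119 and 1066 FPKM at 37 °C, with 5701 FPKM in replicate 3 as labelled. In mNmC RPS31 read 5665 and 6084 FPKM, with 1105 FPKM in replicate 3 as labelled. The libraries at 37 °C other than the one labelled replicate 3 were the lowest, beside the one labelled mNmC replicate 3. With 13 libraries the fusion genes fell at 37 °C, with log2 fold changes of -2.55 ± 0.19 for RPS31, -2.47 ± 0.15 for RPL40B and -2.09 ± 0.15 for RPL40A (largest adjusted p = 3.84e-07). As labelled RPL40A and RPL40B fell (adjusted p = 0.0497 and 0.0415) and RPS31 was at -1.76 ± 0.67 (adjusted p = 0.0552). In mNmC RPL40A, RPL40B and RPS31 were at -0.86, -0.99 and -0.93 as labelled (smallest adjusted p = 0.240) and at -0.23, -0.28 and -0.13 with 13 libraries (smallest adjusted p = 0.145). None of these passed, but with upper quartile scaling of the 13 libraries RPL40A (-0.47, adjusted p = 0.00724) and RPL40B (-0.51, adjusted p = 0.00328) were called lower. In the single mutants all 3 fell with 13 libraries, at -0.68, -0.68 and -0.75 in mN and -0.52, -0.52 and -0.63 in mC (largest adjusted p = 0.0314), and none passed as labelled (smallest adjusted p = 0.689).

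Counting 5 units for each UBI4 message and 1 for each fusion message gives the share of ubiquitin-coding units that came from UBI4. That share was 11.42, 11.9 and 10.97% in wild type. It was 25.5, 23.5 and 21.3% in mN and 23.1, 20.8 and 20.1% in mC. In mNmC it was 27.0 and 26.5%, with 73.7% in replicate 3 as labelled, and at 37 °C it was 72.8 and 74.4%, with 26.8% in replicate 3 as labelled. The first 2 libraries at 37 °C thus drew most of their ubiquitin-coding message from UBI4, and every library of the other groups except the one labelled mNmC replicate 3 drew most from the fusion genes. The total of both sources was 11718 to 12781 FPKM units in wild type, 13014 and 13383 in the first 2 mNmC libraries and 7737 and 7803 in the first 2 libraries at 37 °C. It was 7067, 8912 and 10313 in mN and 7774, 10008 and 10274 in mC. All single mutant libraries were thus below wild type, and mN replicate 1, which stood apart over all genes, was below both of those at 37 °C. The units are near-copies: of all 50-base windows of the UBI4 coding sequence 81.8% occurred once in the R64 genome, both strands searched. That share rose to 100% at 150 bases, and the labels do not say how reads with several matches were counted. These shares describe messages, not ubiquitin protein.

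**Figure D3:**
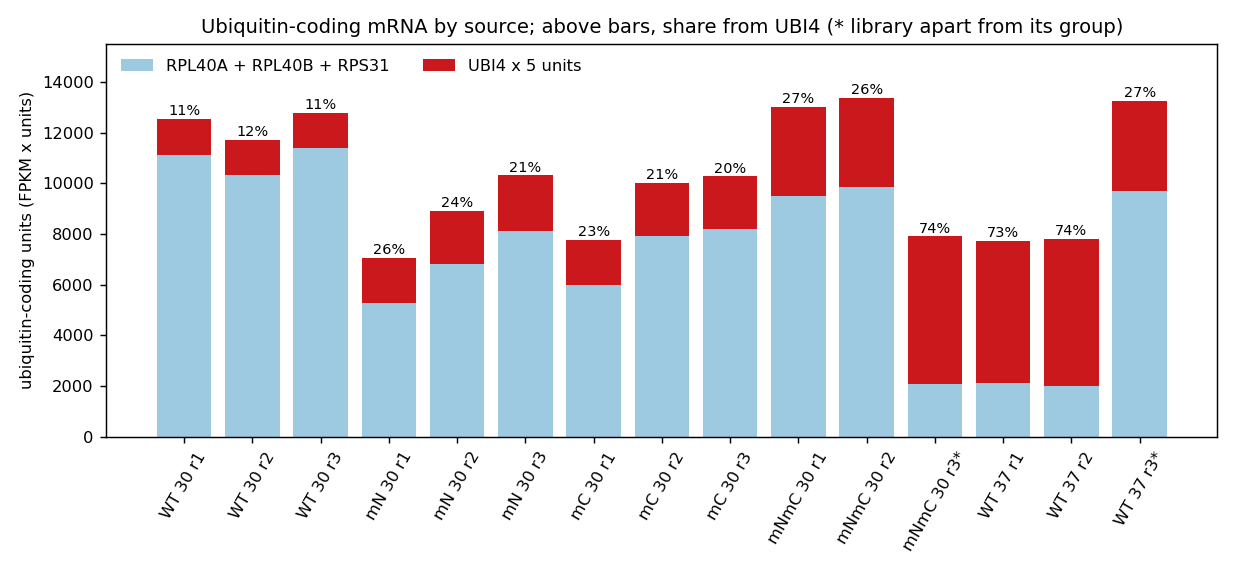
Ubiquitin-coding units in each library, as FPKM times units per message, stacked by source (blue, the 3 ribosomal fusion genes; red, UBI4 times 5), with the UBI4 share above each bar; asterisks mark the 2 libraries that stand apart. The share is 10.97 to 11.9% in wild type at 30 °C, 26.5 and 27.0% in the first 2 mNmC libraries and 72.8 and 74.4% in the first 2 libraries at 37 °C.

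UBC4 (chromosome II, 406628 to 407169, minus strand, 2 exons) and UBC5 (chromosome IV, 569234 to 569770, minus strand, 2 exons) encode closely related E2 enzymes that together carry ubiquitin for the turnover of abnormal and short-lived proteins. Their coding sequences of 447 bases are 77.2% identical, and all 50-base windows of either were unique, so their reads can be told apart. UBC4 was the most abundant member, at 1282, 1271 and 1320 FPKM in wild type. UBC5 was lower on the same per-length scale, at 139, 132 and 129 FPKM.

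Of the pair, UBC5 passed the test at 37 °C and in mNmC. UBC5 read 242, 258 and 200 FPKM at 37 °C and 213, 222 and 236 FPKM in mNmC, all above the wild type libraries. It rose by 0.80 ± 0.11 at 37 °C (adjusted p = 4.36e-04) and by 0.74 ± 0.11 in mNmC (adjusted p = 7.05e-04) as labelled, and by 0.90 ± 0.09 and 0.70 ± 0.09 with 13 libraries. UBC5 read 177, 170 and 149 FPKM in mN and 185, 171 and 159 FPKM in mC. Again no library overlapped wild type, and with 13 libraries UBC5 was called higher in mN (0.31 ± 0.08, adjusted p = 0.0230) and mC (0.36 ± 0.08, adjusted p = 0.0143). These last 2 calls were absent as labelled (adjusted p = 0.310 and 0.237) and with 13 libraries under upper quartile scaling (adjusted p = 0.0735 and 0.141).

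UBC4 read 1674, 1578 and 1431 FPKM at 37 °C and 1483, 1496 and 1566 FPKM in mNmC. These libraries all lay above wild type, but the differences of 0.27 ± 0.21 (adjusted p = 0.315) and 0.23 ± 0.21 (adjusted p = 0.426) did not pass. With 13 libraries they were 0.33 ± 0.23 (adjusted p = 0.213) and 0.21 ± 0.23 (adjusted p = 0.466), and with 12 libraries (also without mN replicate 1) the one at 37 °C passed (0.33 ± 0.09, adjusted p = 0.00506). Relative to the median gene the values as labelled were 0.01 and -0.04. In mC it read 1186, 1443 and 1539 FPKM, on both sides of wild type. In mN it read 561, 1035 and 1072 FPKM, below wild type in every library, with replicate 1, which stood apart over all genes, far the lowest. The difference of -0.60 ± 0.21 did not pass (adjusted p = 0.293, and 0.0634 with 13 libraries). With upper quartile scaling of the 13 libraries it was called lower (-0.58 ± 0.15, adjusted p = 0.0183). With 12 libraries UBC4 fell by 0.29 ± 0.09 in mN (adjusted p = 0.0288).

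Of the ligases, RSP5 and SAN1 did not pass at 37 °C with the deposited scaling, and UBR1 and HUL5 rose. RSP5 (chromosome V, 410189 to 412618, plus strand, 1 exon) is the essential HECT ligase of the Nedd4 family, which acts on membrane proteins and on cytosolic proteins misfolded by heat. It read 124, 131 and 131 FPKM in wild type, 124, 132 and 137 FPKM in mN and 123, 123 and 130 FPKM in mC. In mNmC it read 126, 126 and 121 FPKM and at 37 °C 117, 124 and 124 FPKM. All groups overlapped wild type, and the difference at 37 °C was -0.08 ± 0.08 as labelled (adjusted p = 0.424) and -0.09 ± 0.07 with 13 libraries (adjusted p = 0.233). Since the median gene was higher at 37 °C, upper quartile scaling put RSP5 among the genes called lower there (-0.31 ± 0.08, adjusted p = 0.0157). It was also called lower in mNmC (-0.28 ± 0.08, adjusted p = 0.0315). Both calls were made with 13 libraries under that scaling too (adjusted p = 9.20e-04 and 0.0123). With the deposited scaling RSP5 also averaged below wild type in both groups, but the libraries overlapped and neither difference passed. Its calls thus rest on the scaling.

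SAN1 (chromosome IV, 742042 to 743874, minus strand, 1 exon) is the nuclear ligase that binds misfolded proteins directly. It read 49.99, 52.0 and 57.3 FPKM in wild type, 57.0, 59.0 and 65.3 FPKM at 37 °C and 60.5, 64.6 and 54.1 FPKM in mNmC. In mN it read 42.4, 60.4 and 67.2 FPKM, with replicate 1 again the lowest, and in mC 55.5, 53.5 and 56.8 FPKM. SAN1 was not called in any comparison with 15 or 13 libraries. With 12 libraries it was called higher in mN (0.26 ± 0.07, adjusted p = 0.0154) and mNmC (0.23 ± 0.07, adjusted p = 0.0115).

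UBR1 (chromosome VII, 859901 to 865753, minus strand, 1 exon) is the N-end rule ligase, which also tags misfolded cytosolic proteins. It read 21.7, 22.9 and 23.2 FPKM in wild type, 33.5, 33.2 and 27.8 FPKM at 37 °C and 26.7, 27.8 and 31.9 FPKM in mNmC. Neither group overlapped wild type, and the libraries labelled replicate 3 again held the level of the other group. UBR1 rose at 37 °C by 0.46 ± 0.09 (adjusted p = 0.00326) as labelled and by 0.54 ± 0.06 with 13 libraries. Upper quartile scaling of the 15 libraries ended that call (0.23 ± 0.10, adjusted p = 0.1004), and that of the 13 libraries kept it (0.30 ± 0.09, adjusted p = 0.0142). The rise in mNmC, 0.33 ± 0.09 as labelled (adjusted p = 0.0190) and 0.26 ± 0.06 with 13 libraries (adjusted p = 0.00553), was 0.01 above that of the median gene in the latter fit. It was lost under upper quartile scaling (0.10 ± 0.10, adjusted p = 0.525). It was also lost without mNmC replicate 3 alone (adjusted p = 0.0592), without wild type replicate 1 (0.0737) and without wild type replicate 2 (0.0528). UBR1 stood at 27.2, 25.2 and 25.7 FPKM in mN and 24.8, 25.2 and 26.4 FPKM in mC, above wild type in every library, and passed in mN with 13 libraries (0.20 ± 0.06, adjusted p = 0.0318), but not as labelled (adjusted p = 0.435) or with upper quartile scaling of the 13 (adjusted p = 0.105).

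HUL5 (chromosome VII, 238353 to 241085, plus strand, 1 exon) encodes a proteasome-bound ligase that lengthens ubiquitin chains, including those on heat-damaged cytosolic proteins. It was the least abundant member, at 17.1, 17.0 and 17.6 FPKM in wild type. At 37 °C it read 31.0 and 32.4 FPKM, with 20.4 FPKM in replicate 3 as labelled. In mNmC it read 21.9 and 22.2 FPKM, with 33.5 FPKM in replicate 3 as labelled. HUL5 rose at 37 °C by 0.64 ± 0.19 as labelled (adjusted p = 0.0224) and by 0.84 ± 0.11 with 13 libraries (adjusted p = 4.77e-05). The call as labelled was lost when any of wild type replicates 1, 2 or 3 or 37 °C replicates 1 or 2 was left out (adjusted p = 0.0527 to 0.0966) and under upper quartile scaling (adjusted p = 0.133). In mNmC it was at 0.53 ± 0.19 as labelled (adjusted p = 0.0554), and with 13 libraries it rose by 0.34 ± 0.11 (adjusted p = 0.0295), a call lost with upper quartile scaling of those libraries (0.12 ± 0.16, adjusted p = 0.596). In mN it read 26.6, 18.8 and 21.0 FPKM and in mC 19.8, 19.5 and 21.6 FPKM, above wild type in every library, and the mN difference passed with 13 libraries (0.33 ± 0.10, adjusted p = 0.0436). It did not pass as labelled (adjusted p = 0.556) or with upper quartile scaling of the 13 (adjusted p = 0.105).

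CDC48, UFD1 and NPL4 encode the complex that pulls ubiquitin-tagged proteins out of membranes and assemblies: Cdc48 is the ATPase, and Ufd1 and Npl4 are the cofactors that bind ubiquitin. They did not move together. CDC48 (chromosome IV, 236157 to 238664, minus strand, 1 exon) read 349, 369 and 356 FPKM in wild type, 381, 388 and 358 FPKM at 37 °C and 365, 378 and 388 FPKM in mNmC. As labelled both groups overlapped wild type, and neither difference passed (0.07 ± 0.09 each, adjusted p = 0.528 and 0.529). Without the replicate 3 libraries those at 37 °C lay above wild type and those in mNmC overlapped it, and the differences of 0.10 ± 0.06 (adjusted p = 0.152) and 0.05 ± 0.06 (adjusted p = 0.484) did not pass. The single mutants were the groups with the highest CDC48, at 402, 411 and 419 FPKM in mN and 407, 415 and 395 FPKM in mC, above all wild type libraries. With 13 libraries it was called higher in mN (0.20 ± 0.05, adjusted p = 0.0269) and mC (0.18 ± 0.05, adjusted p = 0.0457). These calls were absent as labelled (adjusted p = 0.395 and 0.479) and with 13 libraries under upper quartile scaling (adjusted p = 0.0595 and 0.405).

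UFD1 (chromosome VII, 589826 to 590911, plus strand, 1 exon) read 87.3, 84.6 and 90.2 FPKM in wild type, 136, 130 and 112 FPKM at 37 °C and 114, 129 and 134 FPKM in mNmC. It rose by 0.52 ± 0.11 in each as labelled (adjusted p = 0.00440 and 0.00503), and by 0.60 ± 0.10 and 0.47 ± 0.10 with 13 libraries. In mN (75.5, 91.5 and 93.8 FPKM) and mC (89.3, 97.4 and 96.5 FPKM) it overlapped wild type and did not pass with 15 or 13 libraries. With 13 libraries UFD1 was thus called where both sites were mutated or heat was given, and CDC48 in the single mutants alone. The CDC48 calls were absent as labelled, so this is a difference in calls, not opposite changes.

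NPL4 (chromosome II, 576344 to 578086, minus strand, 1 exon) read 39.7, 41.2 and 43.1 FPKM in wild type and 58.3 and 58.7 FPKM at 37 °C, with 45.9 FPKM in replicate 3 as labelled. It rose by 0.38 ± 0.12 as labelled (adjusted p = 0.0305) and by 0.49 ± 0.08 with 13 libraries (adjusted p = 1.72e-04). The call as labelled was lost when any of wild type replicates 1, 2 or 3 or 37 °C replicates 1 or 2 was left out (adjusted p = 0.0569 to 0.119) and under upper quartile scaling (adjusted p = 0.280). In mNmC it read 44.2 and 48.5 FPKM, with 59.3 FPKM in replicate 3 as labelled, and did not pass (adjusted p = 0.108, and 0.106 with 13 libraries). In mC it read 49.6, 50.3 and 52.9 FPKM, above wild type and above the first 2 mNmC libraries, and was called higher with 13 libraries (0.29 ± 0.07, adjusted p = 0.0194). In mN it read 41.5, 47.6 and 48.1 FPKM and overlapped wild type. With 12 libraries NPL4 was called higher in mN (0.21 ± 0.06, adjusted p = 0.0194) and mNmC (0.16 ± 0.06, adjusted p = 0.0283).

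**Figure D4:**
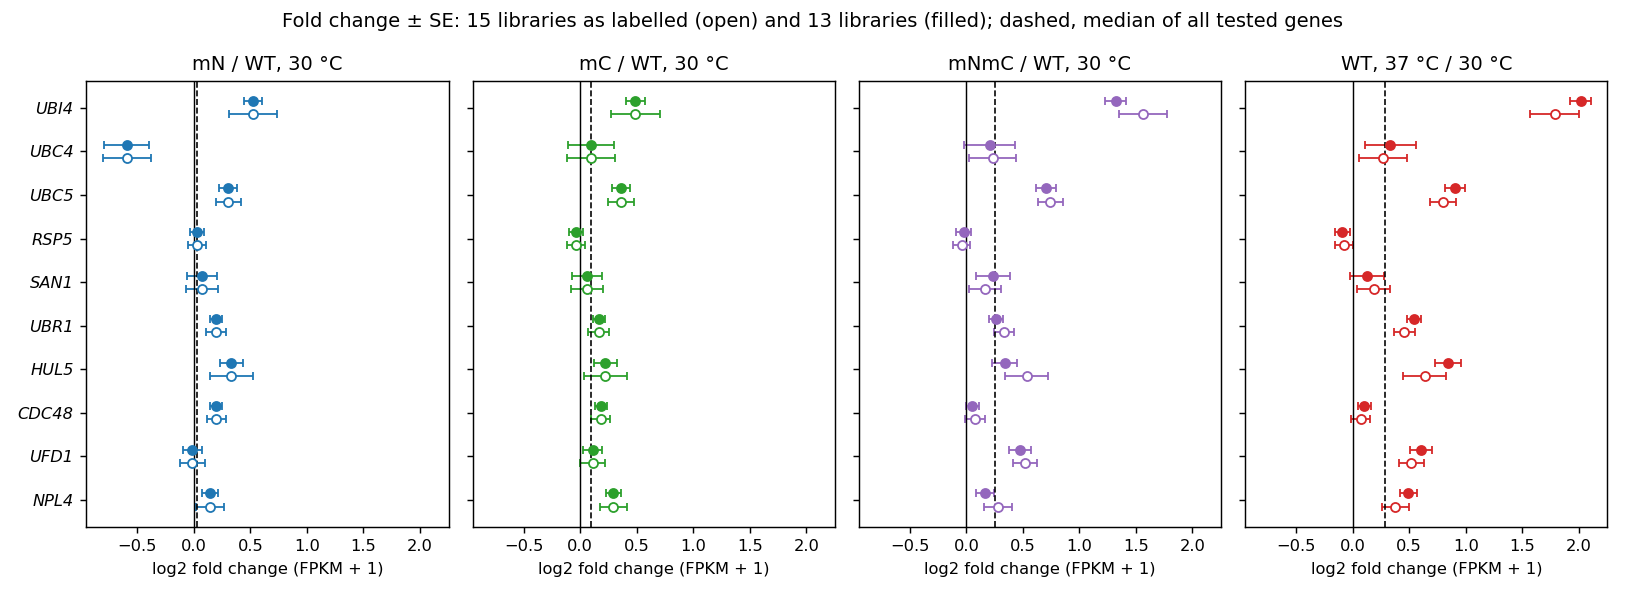
Log2 fold change of FPKM with 1 added, ± SE, of the 10 genes in 4 comparisons with wild type at 30 °C; open points are the fit of 15 libraries as labelled, filled points the fit of 13 libraries, and the dashed line is the median of all 6399 genes in the latter. UBI4 lies farthest to the right in mNmC (1.32) and at 37 °C (2.02). RSP5, CDC48 and SAN1 lie left of the dashed line in both, and UBC4 and NPL4 do in mNmC.

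By count, 6 of the 10 members were called higher at 37 °C as labelled (UBI4, UBC5, UBR1, HUL5, UFD1 and NPL4), where 32.1% of all genes were. The same 6 were called with 13 libraries, where 47% of all genes were called higher. In mNmC 4 were called higher as labelled (UBI4, UBC5, UBR1 and UFD1) against 24.5% of all genes, and these 4 and HUL5 with 13 libraries against 40.6%. The median change of the members was 0.52 at 37 °C and 0.25 in mNmC with 13 libraries, beside 0.29 and 0.25 over all genes. In mNmC the members as a set therefore stood where the genome stood, and UBI4 (1.07), UBC5 (0.45) and UFD1 (0.22) were the members farthest above the median gene. Upper quartile scaling of the 15 libraries left UBI4, UBC5 and UFD1 called higher in both comparisons, where 16.3% of all genes were at 37 °C and 9.5% in mNmC, and called RSP5 lower in both, where 13.5% and 6.16% were. Counted without a test, as labelled, 7 members had every library above wild type at 37 °C, beside 44.1% of all genes. The same 7 (UBI4, UBC4, UBC5, UBR1, HUL5, UFD1 and NPL4) did in mNmC, beside 44.9%. With 13 libraries 8 did in each, CDC48 being added at 37 °C (59.2% of all genes) and SAN1 in mNmC (62.7%). With 12 libraries 7 members were called higher at 37 °C, where 53.1% of all genes were, and 7 in mNmC, where 52.8% were.

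As labelled, limma called none of the members in mN or mC, where it called 0.453% and 0.188% of all genes. At an unadjusted p under 0.05 there were 4 members in mN, beside 745 of the 6399 genes, and 3 in mC, beside 680. With 13 libraries 5 were called higher in mN (UBI4, UBC5, UBR1, HUL5 and CDC48), where 12.8% of all genes were, and 4 in mC (UBI4, UBC5, CDC48 and NPL4), where 12.3% were. Leaving out mN replicate 1 too (12 libraries) gave 7 higher and UBC4 lower in mN, where 29.5% of all genes were called in either direction, and 6 higher in mC (26.5%), UBR1 and HUL5 being added. Without a test, UBI4, UBC5, UBR1, HUL5 and CDC48 had every library above wild type in both single mutants. That made 5 members in mN, beside 22.2% of all genes, and, with NPL4, 6 in mC, beside 36.2%. UBC4 alone had every mN library below wild type, beside 12.3% of all genes. The 13-library median of the members was 0.17 in each single mutant, beside 0.03 in mN and 0.09 in mC over all genes.

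Adding the amino-terminal mutation to the carboxyl-terminal one raised 3 members, where 12.4% of all genes were called higher as labelled and 27.6% with 13 libraries. UBI4 was 1.08 ± 0.22 higher in mNmC than in mC (adjusted p = 0.00652, 0.83 ± 0.09 with 13 libraries). UBC5 was 0.38 ± 0.11 higher (adjusted p = 0.0407) and UFD1 0.41 ± 0.11 higher (adjusted p = 0.0263). The UBC5 call did not hold with the upper quartile (adjusted p = 0.314) or without any 1 mC or mNmC library (adjusted p = 0.0627 to 0.138). The UFD1 call was lost with the upper quartile (adjusted p = 0.0641), and without any mC library or mNmC replicate 2 or 3 (adjusted p = 0.0595 to 0.109). All 3 passed with 13 libraries, UBC5 at 0.34 ± 0.09 and UFD1 at 0.36 ± 0.10. Upper quartile scaling of those libraries kept UBI4 and UFD1, where 17.9% of all genes were called higher. It called CDC48 (-0.28 ± 0.08, adjusted p = 0.0176) and NPL4 (-0.28 ± 0.06, adjusted p = 0.00331) lower, where 17.7% were.

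Whether the effect of 1 mutation depends on the other was tested as the interaction of the 2 sites, an extra test added with results known. As labelled limma called none of the members, where 4.69% of all genes were called, and 3 had an unadjusted p under 0.05, where 21% of all genes did. With 13 libraries CDC48 was lower in mNmC than the sum of the single mutants on the log2 scale, at -0.33 ± 0.08 (adjusted p = 0.0105), and UFD1 was higher, at 0.37 ± 0.13 (adjusted p = 0.0433), where 35% of all genes were called. UBI4 was at 0.31 ± 0.12 (adjusted p = 0.0722) and did not pass. The median gene had an interaction of 0.14 in that fit. With upper quartile scaling of those libraries CDC48 passed (-0.49 ± 0.11, adjusted p = 0.00453), as did NPL4 (-0.43 ± 0.08, adjusted p = 0.00165), and UFD1 did not (0.21 ± 0.08, adjusted p = 0.0628), where 36.9% of all genes were called. With 12 libraries 45.3% of all genes were called.

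Set directly against wild type at 37 °C, mNmC at 30 °C differed in none of the members as labelled, where limma called 0% of all genes, with no member and 65 genes at an unadjusted p under 0.05. With 13 libraries 4 members were lower in mNmC, where 28.8% of all genes were called lower. UBI4 was at -0.70 ± 0.10 (adjusted p = 1.25e-04) and HUL5 at -0.50 ± 0.12 (adjusted p = 0.00468). NPL4 was at -0.33 ± 0.09 (adjusted p = 0.00618) and UBR1 at -0.28 ± 0.07 (adjusted p = 0.00411). UBC5 (-0.20 ± 0.10, adjusted p = 0.102) and UFD1 (-0.13 ± 0.11, adjusted p = 0.321) did not pass, although UBC5 did with 12 libraries (adjusted p = 0.0445). The fusion genes went the other way, RPS31 being 2.43 ± 0.21 higher in mNmC (adjusted p = 1.82e-06).

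Readouts of Hsf1, Msn2 and Msn4, whose binding letters occur upstream of UBI4, are given beside it, with 13 libraries. For Rpn4 the message of its own gene is given, which is not a readout of its activity. The Hsp70 gene SSA4, driven by Hsf1, rose by 5.02 ± 0.09 at 37 °C and by 4.24 ± 0.09 in mNmC, and by 2.03 ± 0.08 in mN and 1.57 ± 0.08 in mC. The catalase gene CTT1, a target of Msn2 and Msn4, rose by 5.92 ± 0.14 at 37 °C and by 0.47 ± 0.14 in mNmC, 0.74 ± 0.12 in mC and 0.49 ± 0.12 in mN. RPN4, the gene of the proteasome regulator, read 46.9, 47.3 and 54.9 FPKM in wild type and 118 and 130 FPKM in mNmC, with 65.4 FPKM in replicate 3 as labelled. It rose by 1.30 ± 0.13 there (adjusted p = 2.01e-05), by 0.59 ± 0.12 in mC (adjusted p = 0.00871) and by 0.37 ± 0.13 at 37 °C (adjusted p = 0.0252), a call lost with upper quartile scaling (0.12 ± 0.12, adjusted p = 0.383). BTN2, a sorting factor for misfolded proteins and an Hsf1 target, rose by 1.71 ± 0.11 at 37 °C and by 3.23 ± 0.11 in mNmC, and HSP12, a general stress gene, by 8.25 ± 0.38 and 3.52 ± 0.38. SSA4 and HSP12 thus both ranked the groups as UBI4 did at the top, CTT1 was high at 37 °C, and RPN4 was highest in mNmC. BTN2, also an Hsf1 target, did not rank them as SSA4 did, being 1.52 ± 0.12 higher in mNmC than at 37 °C (adjusted p = 7.97e-07). The HSF1 message itself was lower in mN (-0.63 ± 0.09) and mNmC (-1.46 ± 0.10) and higher in mC (0.66 ± 0.09). The part of each factor, and of the HSF1 level, in the level of UBI4 was not tested.

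Other genes of the ubiquitin system were counted from lists written by hand from general knowledge, with 13 libraries unless said, and the upper quartile counts are of those 13. Over all genes 47% were called higher and 18.9% lower at 37 °C (32.1% higher as labelled), and 40.6% higher and 7.39% lower in mNmC (24.5% higher as labelled). With the upper quartile 34.3% were higher and 30% lower at 37 °C, and 20.3% higher and 16.9% lower in mNmC. The counts below are to be read beside these shares, and the list medians beside 0.29 at 37 °C and 0.25 in mNmC.

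Of 19 adaptors that bring Rsp5 to membrane proteins, 16 rose at 37 °C (15 as labelled), with a median of 0.57. RIM8 (1.67 ± 0.10), ROG3 (1.29 ± 0.08), CSR2 (1.19 ± 0.08) and ECM21 (1.14 ± 0.09), all arrestin-like adaptors, rose most, while RSP5 itself did not pass. In mNmC 13 of the adaptors rose (10 as labelled) and ROG3 fell (-0.61 ± 0.08), with a median of 0.39 and BUL3 (0.88 ± 0.17), SSH4 (0.68 ± 0.09) and CSR2 (0.67 ± 0.08) the highest among those called. Upper quartile scaling left 12 higher and 1 lower at 37 °C, and 6 higher and 1 lower in mNmC.

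Of 21 other ligases of quality control 16 rose at 37 °C (9 as labelled, 8 with the upper quartile, where 1 fell), with a median of 0.33. FYV10 (1.39 ± 0.09), a subunit of the GID ligase that degrades gluconeogenic enzymes, rose most, followed by HRD1 (1.35 ± 0.08), the ligase of the endoplasmic reticulum membrane, and HUL4 (1.24 ± 0.13), a HECT protein. In mNmC 8 rose (5 as labelled), with a median of 0.16, and with the upper quartile 3 rose and 3 fell. The highest were PIB1 (0.67 ± 0.14), a ligase of endosomes, and DMA2 (0.66 ± 0.10), a mitotic checkpoint ligase. Set against wild type at 37 °C, HRD1 was lower in mNmC (-1.36 ± 0.09, adjusted p = 3.12e-07).

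Of the 13 other E1 and E2 enzymes 5 rose and 1 fell at 37 °C (4 rose as labelled), with a median of 0.11. They were led by UBC11 (1.23 ± 0.17), UBC7 (1.19 ± 0.11), the E2 of endoplasmic reticulum degradation, and MMS2 (1.16 ± 0.24). With the upper quartile 5 rose and 5 fell. In mNmC 6 rose (3 as labelled, 2 with the upper quartile), with a median of 0.24 and UBC11 (1.00 ± 0.17) and UBC8 (0.79 ± 0.16), the E2 of the GID ligase, the highest.

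Of 18 cofactors of Cdc48 and shuttle factors 13 rose at 37 °C (7 as labelled), with a median of 0.31 and UBX6 (1.49 ± 0.14), UBX5 (0.83 ± 0.16) and DOA1 (0.63 ± 0.06), a ubiquitin-binding partner of Cdc48, the highest. With the upper quartile 7 rose and 3 fell. In mNmC 7 rose (5 as labelled), among them RQC1 (0.43 ± 0.06), a factor of the ribosome quality control complex, and OTU1 fell (-0.65 ± 0.13), with a median of 0.21. With the upper quartile none rose and 3 fell in mNmC.

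Among 23 deubiquitinases and their regulators 11 rose and 1 fell at 37 °C (5 and 1 as labelled), with a median of 0.26. They were led by DOA4 (1.68 ± 0.10), which recovers ubiquitin from cargo at endosomes, and UBP9 (1.51 ± 0.08). In mNmC 11 rose and 4 fell (4 rose as labelled), with a median of 0.22. UBP11 (0.87 ± 0.08) was the highest called and UBP6 (-0.84 ± 0.08), the deubiquitinase bound to the proteasome, the lowest. With the upper quartile 5 rose and 6 fell at 37 °C, and 7 rose and 6 fell in mNmC.

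The proteasome list of 32 subunits parted by scaling. At 37 °C 5 rose (2 as labelled), with a median of 0.13 that is below the 0.29 of all genes, and with the upper quartile 10 fell. In mNmC 14 rose and 3 fell (3 rose as labelled), with a median of 0.28 beside 0.25 for all genes, and with the upper quartile 1 rose and 3 fell. The 3 that fell were PRE4 (-0.76 ± 0.24), a core subunit, RPN12 (-0.74 ± 0.08) and RPN11 (-0.53 ± 0.07), the lid deubiquitinase, which the deubiquitinase list also holds, while RPN5 (0.51 ± 0.11) rose most. All 3 had lower values in mNmC than in wild type at 37 °C as well, PRE4 by -1.04 ± 0.26 and RPN11 by -0.84 ± 0.08. With 13 libraries and the deposited scaling, the list genes named as called lower in mNmC than in wild type all lie on chromosome VI. They are PRE4 (YFR050C), RPN12 (YFR052W), RPN11 (YFR004W), UBP6 (YFR010W), OTU1 (YFL044C) and ROG3 (YFR022W). HSP12 (YFL014W), which rose in mNmC, lies there too. The genes named are not all that fell: of the 4 deubiquitinases called lower, UBP6, OTU1 and RPN11 are named. The share of chromosome VI genes called lower was not counted. Whether the chromosome has a part in these values was not tested.

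**Figure D5:**
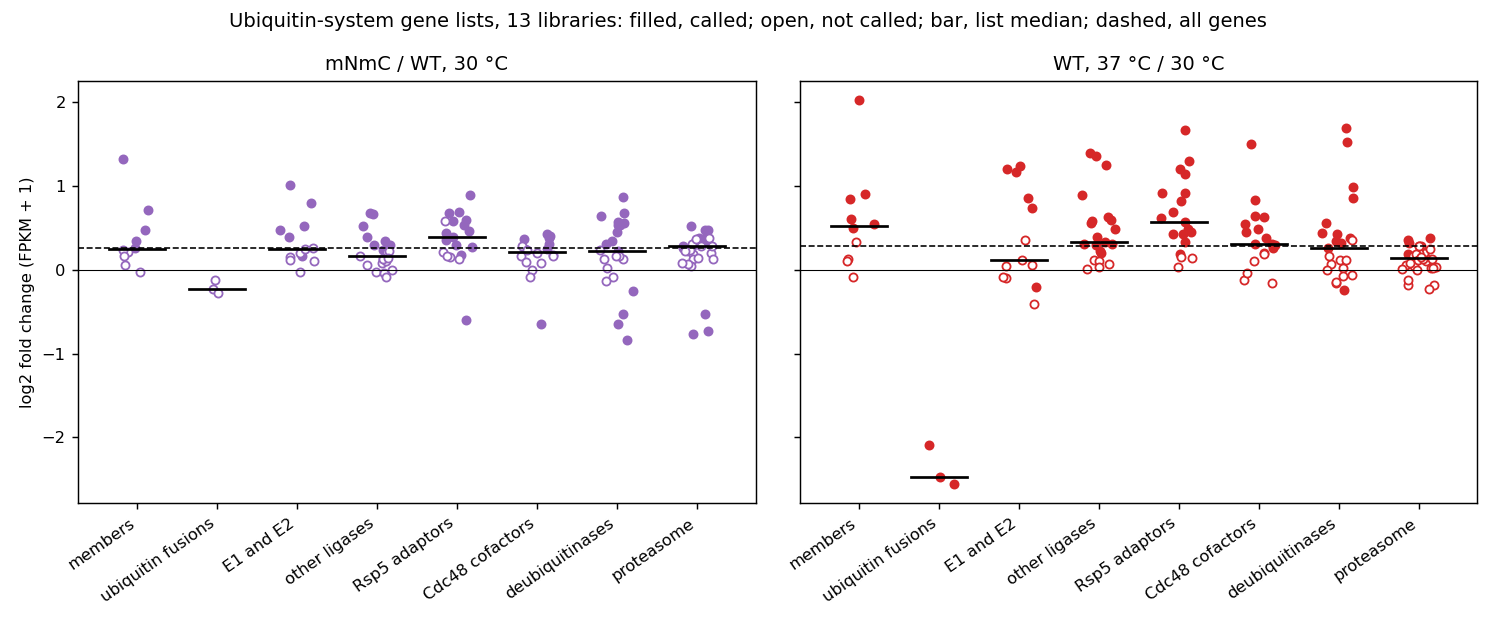
Log2 fold change of each gene of 8 lists in mNmC and in wild type at 37 °C against wild type at 30 °C (13 libraries); filled points passed the test, open points did not, bars are list medians and the dashed line is the median of all genes. The ubiquitin fusion genes stand at -2.55 to -2.09 at 37 °C and did not pass in mNmC, and the Rsp5 adaptors have a median of 0.57 at 37 °C.

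The genes whose levels ran most like those of the members were ranked by Pearson's r of log2 values, leaving out genes that averaged under 10 FPKM. The libraries share depth and a large common difference between groups, so r is a description only. UBI4 ran most like YCL048W-A (r = 0.995 over 15 libraries and 0.994 over 13), ATG8 (0.993 and 0.991) and ATG34 (0.991 and 0.989), and UBC5 ran most like ATG1 (0.976 and 0.974). ATG8 and ATG1 encode core factors of autophagy, the other route by which cells degrade proteins. UBC5 also ran like RTC2 (0.970 over 15 libraries) and AAC1 (0.967). Over 15 libraries UBC4 ran most like MIM2 (0.962), UBR1 like PKH2 (0.981) and HUL5 like PET111 (0.974). UFD1 ran most like CRS5 (0.984 over 15 libraries), a metallothionein gene. NPL4 ran like ECM10 (0.973) and ALY1 (0.970), an Rsp5 adaptor. The highest r was lower for CDC48 (0.906, with YOL075C), SAN1 (0.913, with YJR027W) and RSP5 (0.832, with FIG2). Between members, UBI4 had r of 0.940 with UBR1, 0.934 with UBC5 and 0.934 with UFD1, but 0.014 with CDC48 and -0.512 with RSP5 (15 libraries).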

How the data were processed

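Messenger RNA of 15 Saccharomyces cerevisiae libraries had been extracted with hot phenol, selected on oligo(dT) and copied from random hexamer primers, the second strand being made by nick translation, per the labels' protocols, which state no marking of strands. The authors deposited 1 table of FPKM values, 1 column per library, divided by gene length and by each library's counted total, as the values show. HTSeq 0.6.1, TopHat2 2.0.12 and Bowtie2 2.2.3 are named in the submitters' processing notes. Build, annotation, filters and the treatment of reads with several matches are not given in the sources used.

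The labels tied each of the 15 columns to its library. Of 7126 genes, 346 were at 0 in all libraries and 6048 matched the R64 annotation. For 99.2 to 99.3% of single-exon genes, FPKM times R64 coding length came to whole reads within 0.01 after division by a library constant, which gave the reads printed. No annotated R64 gene overlaps a member. The R64 coding sequences and promoters were read with Python 3.11.15 and pandas 2.3.3.

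Genes had to reach 1 FPKM in 3 or more libraries, which left 6399, and were analysed as log2(FPKM + 1). A mean per group was fitted to 15 libraries using limma 3.58.1 (R 4.3.3), a mean-variance trend and 10 residual degrees of freedom, and Benjamini-Hochberg adjustment covered every gene tested. The procedure was tested on simulated data. There were 6 comparisons. The fits of 13 and 12 libraries and the interaction of the 2 sites were added after seeing the data. The members and lists were chosen with earlier results of these data known. Named genes were all members, HSF1, SSA4, BTN2, HSP12, CTT1, RPN4 and the ubiquitin fusion genes. Up to 4 called genes of largest change per list were named too, as were genes among the 3 most like each member. Alternatives were upper quartile scaling, no variance trend, a pseudocount of 0.1, a 10 FPKM filter (5638 genes) or none (6780 genes), a replicate block, the groups of a comparison alone, and each library left out. The labels name no batch, and no batch term was fitted.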

Additional observations from a re-analysis of the deposited data

Results flagged for a closer look

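In 2 members the effect of the amino-terminal mutation differed between cells with an intact and with a mutated carboxyl-terminal site, by a test of the interaction in limma with 13 libraries. For CDC48 the interaction was -0.33 ± 0.08 (adjusted p = 0.0105): with 13 libraries the mutation changed it by 0.20 ± 0.05 in wild type, and mNmC was at -0.13 ± 0.06 against mC (adjusted p = 0.116). For UFD1 it was 0.37 ± 0.13 (adjusted p = 0.0433), from -0.01 ± 0.09 in wild type to 0.36 ± 0.10 in mC, and it was lost with upper quartile scaling of those libraries (0.21 ± 0.08, adjusted p = 0.0628). Of all genes 35% had a called interaction in the 13-library fit, more than the 2 of 10 members. With all 15 libraries as labelled the values were -0.30 ± 0.12 (adjusted p = 0.169) and 0.42 ± 0.15 (adjusted p = 0.138). With mN replicate 1 also left out (12 libraries) they were -0.34 ± 0.06 (adjusted p = 0.00128) and 0.28 ± 0.09 (adjusted p = 0.0246), and UBC4 (0.40 ± 0.13, adjusted p = 0.0220) and NPL4 (-0.34 ± 0.08, adjusted p = 0.00570) passed too, where 45.3% of all genes did.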

How the results depend on the processing

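Member counts here take calls in either direction. The count at 37 °C (6 as labelled) stayed within 1.5 times under all settings run. That in mNmC (4) did so except with 12 libraries (7). With upper quartile scaling of the 15 libraries, however, 3 were higher and 1 lower in each. UBR1, HUL5 and NPL4 lost their calls at 37 °C and UBR1 in mNmC, and RSP5 was called lower in both. With 1 library left out the counts ranged over 4 to 6 and 3 to 5. In mC against wild type none was called as labelled (3 at an unadjusted p under 0.05), against 4 with 13 libraries, 2 with 13 libraries and upper quartile scaling, 6 with 12 libraries and 5 with the groups of the comparison alone. In mN none was called as labelled (4 at an unadjusted p under 0.05), against 5 with 13 libraries, 2 with 13 libraries and upper quartile scaling, 1 with its groups alone and 8 with 12 libraries. For mNmC against mC the 3 calls became 1 with upper quartile scaling, 0 with the groups alone (UBI4 adjusted p = 0.0546), 1 to 2 with 1 library left out, and 5 with 12 libraries. For mNmC against wild type at 37 °C 0 members became 4 with 13 libraries under either scaling and 5 with 12 libraries. The cause was not tested. Counts over all genes moved too: 2435 at 37 °C (1146 to 4812 over the other settings), 1721 in mNmC (983 to 4081), 29 in mN (8 to 1887), 12 in mC (3 to 2131), 937 for mNmC against mC (341 to 3542), and 0 for mNmC against wild type at 37 °C (up to 4338, with 12 libraries).

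Every reversal was of a value that was not called under either setting. With upper quartile scaling CDC48 was at -0.164 in mNmC, -0.162 at 37 °C and -0.00248 for mNmC against 37 °C. SAN1 was at -0.0693, -0.0438 and, in mC, -0.0201, and at -0.0492 for mNmC against mC. UBC4 was at -0.00817 in mNmC and -0.0258 for mNmC against mC. With 13 libraries and that scaling CDC48 was at -0.179, -0.147 and -0.0325 in the same order, SAN1 at -0.119 at 37 °C, -0.0201 in mC and 0.123 for mNmC against 37 °C, and UBC4 at -0.0267 in mNmC. NPL4 was at -0.0661 in mNmC, and for mNmC against mC HUL5 was at -0.0318, UBC4 at -0.0443 and UBR1 at -0.0518. With 13 libraries alone, and with 12, CDC48 (-0.0503) and SAN1 (0.106) reversed against 37 °C and RSP5 (0.0133) against mC, and with 12 libraries UFD1 was at 0.0840 in mN. With 1 library left out, values for mNmC against 37 °C ran from -0.0292 to 0.0287 (CDC48), -0.310 to 0.00943 (HUL5), -0.0766 to 0.0501 (SAN1), -0.102 to 0.0112 (UBC4), -0.161 to 0.0212 (UBC5) and -0.0836 to 0.0661 (UFD1). For mNmC against mC they ran from -0.133 to 0.0745 (NPL4) and -0.0185 to 0.0217 (RSP5). In mN they ran from -0.00754 to 0.0659 (RSP5), -0.0642 to 0.261 (SAN1) and -0.0709 to 0.0840 (UFD1).

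Deviations from the group mean of samples with the same replicate number had correlations of -0.0804 to 0.149 against wild type at 30 °C. For mNmC against wild type at 37 °C the correlations were -0.807, -0.823 and -0.950. These 2 groups hold the libraries that look exchanged, so values that involve them cannot show whether replicates share an effect. The mN and mC groups were not set against each other in this way. With the replicate block the member counts were 6 at 37 °C, 4 in mNmC and 2 for mNmC against mC, where UBC5 had an adjusted p of 0.0530. The block called 0 members in mN, mC and mNmC against 37 °C, as limma did without it. Group means in the 13-library fit rest on 2 libraries in mNmC and at 37 °C, and reads inside the near-identical UBI4 units depend on how the authors counted reads with several matches.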
